A study of Mus musculus with 9 samples.

Results

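The genes described here are the nucleolar ribosome biogenesis factors of the mouse, chosen by symbol. They comprise the symbols that begin with Nop, Nol, Utp or Rrp followed by a digit, the RNA polymerase I subunits Polr1a to Polr1e, and 15 named factors (Fbl, Dkc1, Gar1, Nhp2, Ncl, Npm1, Rrs1, Wdr12, Pes1, Bop1, Gnl3, Nolc1, Imp3, Imp4 and Heatr1). The deposited table holds 57 such genes among 26214, and 56 of them passed a filter of a mean value of at least 10 over the 8 libraries that were compared. The exception was Nol4, which was listed at 0 in all 8. The rule reads names alone and no measured value, but the set was proposed with earlier results of these data known. No test was therefore run over the set.

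RNA was sequenced from sorted stromal cells of male C57Bl/6 mice (C57Bl/6 J in the methods of the study) aged 8 to 12 weeks, collected 1 day after an injection into the quadriceps. Fibro-adipogenic progenitors of muscle (FAPs) came from mice given NaCl (2 libraries), injured FAPs came from mice given 50% glycerol in saline, which damages muscle fibres (3 libraries), and adipose stromal cells (ASCs) came from the subcutaneous fat of mice given NaCl (3 libraries). All 3 groups were isolated magnetically as cells negative for CD45 and CD31 and positive for Sca-1. A single library of CD31+CD45+ cells from glycerol-injected mice stands alone and was not tested. The study describes triplicates drawn from cells pooled over 3 animals, so the p-values below measure the spread between these libraries, which may be technical. In bulk RNA of this kind, fewer cells of one type and less RNA per cell cannot be told apart.

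Ribosomes are made in the nucleolus, where RNA polymerase I transcribes the large precursor of the 18S, 5.8S and 28S ribosomal RNAs. Box C/D ribonucleoproteins, guided by small nucleolar RNAs (snoRNAs), methylate that precursor, and box H/ACA ribonucleoproteins convert selected uridines to pseudouridine. The small-subunit processome, a large assembly built around the U3 snoRNA, cuts and folds the 18S part, and a separate set of factors assembles the large subunit. The pathway is costly for a cell, is driven in large part by the transcription factor Myc, and is known to rise when cells leave rest.

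Each value is a normalised read count, that is, reads per gene divided by a size factor of the library. The recovered reads numbered 26698572 to 27481573 in the ASC and injured FAP libraries and 24052508 and 24164447 in the FAP libraries, so nearly every value reported here rests on far more than the 3 reads that count as a floor. The stromal markers Pdgfra, Ly6a, Cd34, Dcn and Col1a1 were above 0 in all 8 libraries. They were also above 0 in the CD31+CD45+ library, so this alone does not identify the sorted cells. Ptprc, which encodes the leukocyte antigen CD45, was listed at 0 in both FAP libraries, at no more than 1.13 in ASCs and between 9.92 and 55.8 in injured FAPs. ASC replicate 1 stood apart for the nucleolar genes. It exceeded both other ASC libraries for 47 of the 56 tested genes, and its median ratio to their mean was 1.46, against 1.01 over all genes tested. The calls that change without it are named below.

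Nucleolar factors were more abundant in injured FAPs and in ASCs than in FAPs. The median normalised read count over the 56 genes was 413 and 387 in the FAP libraries. It was 963, 896 and 986 in the injured FAP libraries and 932, 684 and 667 in the ASC libraries. Both FAP libraries lay below all 6 others. The summed values of these genes made up 0.146% and 0.135% of all values in the FAP libraries, 0.448% to 0.505% in the injured FAP libraries and 0.201% to 0.294% in the ASC libraries.

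**Figure D1:**
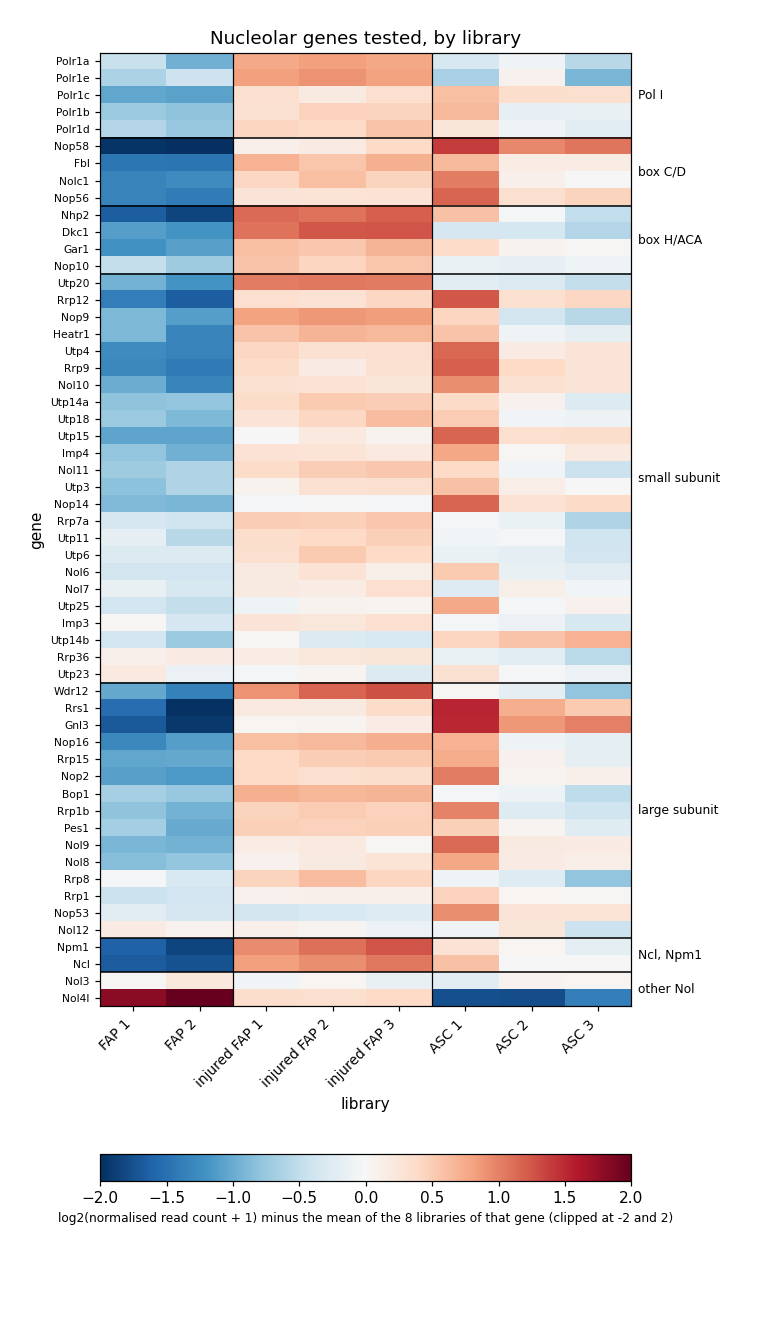
The heatmap shows, for each of the 56 tested nucleolar genes (rows, grouped by role) in each of the 8 libraries (columns), the log2(normalised read count + 1) minus the mean of that gene over the 8 libraries, on a colour scale cut at −2 and 2. The 2 FAP columns are blue for most genes, the 3 injured FAP columns are evenly red, ASC replicate 1 is redder than the other ASC columns, and Nol4l runs the other way.

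A gene was called changed when limma gave a Benjamini-Hochberg adjusted p under 0.05, taken over 13601 tested genes, and its log2 fold change exceeded 0.58 upward or downward. SE is the standard error of a log2 fold change. In injured FAPs against FAPs, 44 of the 56 nucleolar genes were higher and 1 was lower, against 24.9% higher and 27.7% lower among all tested genes. Their median log2 fold change was 1.29 (range −1.55 to 2.88), and that of all genes was −0.051. In ASCs against FAPs, 40 were higher and 1 was lower, against backgrounds of 23.4% and 23.8%, with a median of 0.94 (range −3.54 to 3.20) beside 0.0049 for all genes. Both comparisons use the same 2 FAP libraries, so their values are not independent of each other, and the libraries were set against each other directly as well. In injured FAPs against ASCs, 15 genes were higher and 6 lower, against backgrounds of 25.0% and 25.8%, with a median of 0.30 beside 0.021. The share of members higher in injured FAPs than in ASCs was thus close to that of all genes.

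These counts depend in part on scaling and on ASC replicate 1. Without that library, 33 genes were higher and 1 lower in ASCs than in FAPs (median 0.72), and 22 were higher and 3 lower in injured FAPs than in ASCs (median 0.50). The 7 ASC rises no longer called without it were those of Rrp1b (log2 fold change 0.55), Nop53 (0.54), Nop9 (0.54), Polr1d (0.52), Utp25 (0.46), Rrp1 (0.44) and Nol11 (0.41). In injured FAPs against ASCs, Nop53, Rrs1 and Nop14 were no longer called (−0.58, −0.38 and −0.36), and Rrp1b, Nop16, Heatr1, Nol11, Utp11, Polr1d and Rrp36 became called as higher (0.58 to 0.81). Total-read scaling, in which each library is divided by its recovered reads, moved the median of all genes to −0.56 (ASCs less FAPs) and to 0.71 (injured FAPs less ASCs). The nucleolar genes then split 24 higher to 5 lower for ASCs over FAPs and 39 to 0 for injured FAPs over ASCs, while all genes split 1594 to 6316 and 7377 to 1692. A common 75th percentile gave splits of 33 to 2 and 21 to 4, and quantile normalisation gave 37 to 1 and 16 to 2. Measured from the median of all genes, the median of the nucleolar genes was 0.93 for ASCs over FAPs and 0.28 for injured FAPs over ASCs. Total-read scaling could hardly alter these values, because it shifts every gene by nearly the same amount.

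**Figure D2:**
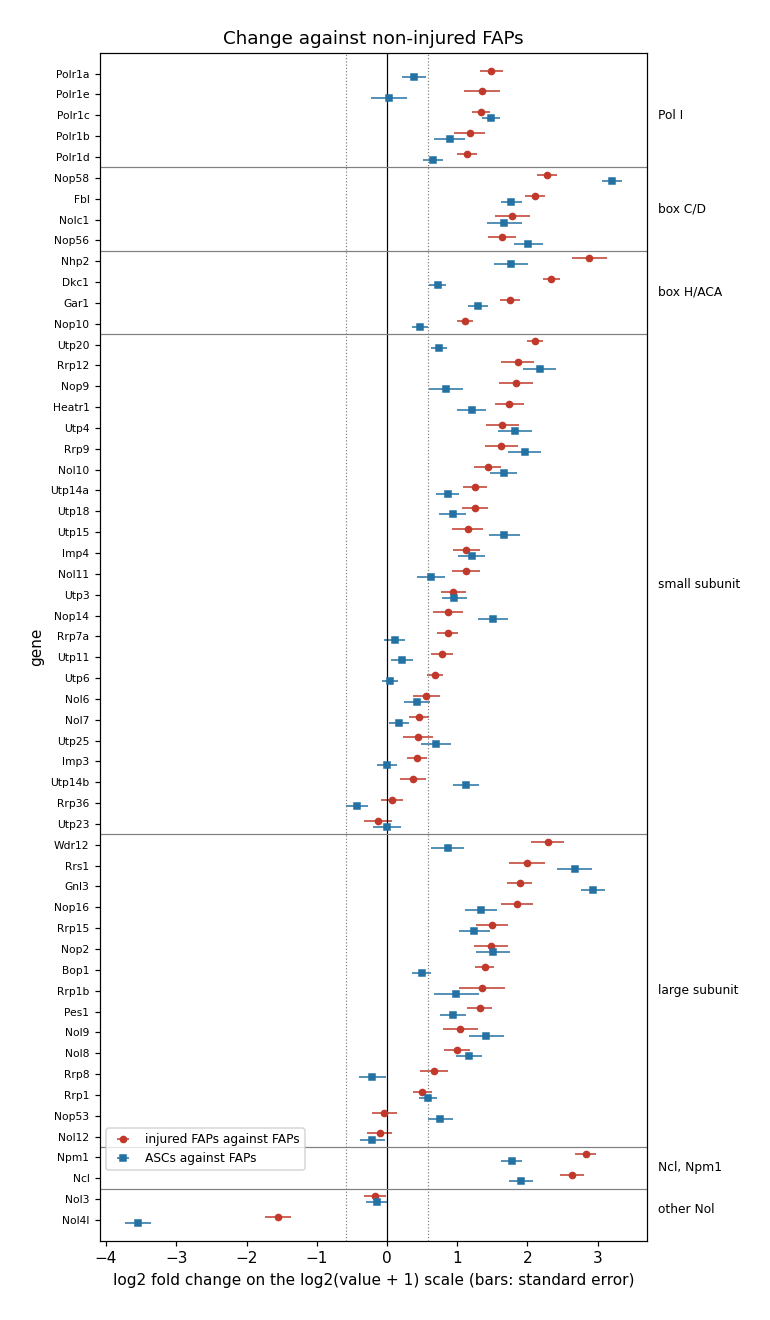
Each row is a tested nucleolar gene, with its log2 fold change against non-injured FAPs in injured FAPs (red circles) and in ASCs (blue squares), and bars for the standard error. Dotted lines mark ±0.58; most points of both colours lie to the right of the upper line, and Nol4l lies far to the left in both.

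Beside the counts by role below stand the shares of all tested genes, 24.9% and 23.4% higher than in FAPs in injured FAPs and ASCs. Between injured FAPs and ASCs, 25.0% were higher and 25.8% lower. RNA polymerase I was represented by 5 subunits. All 5 were higher in the injured state, by 1.14 to 1.49 on the log2 scale against FAPs, and 3 were higher in ASCs, with a median over the subunits of 0.65. Polr1a, the largest catalytic subunit, measured 759 and 529.7 in FAPs, 1752, 1833 and 1759 in injured FAPs and 822, 979 and 704 in ASCs. The injured libraries thus stood above all others, and each ASC library was above the lower of the 2 FAP libraries. Polr1a was 2.76-fold higher in injured FAPs than in FAPs (log2 fold change 1.49, SE 0.17, adjusted p = 3.14e-05). It was not called in ASCs against FAPs (log2 fold change 0.38, SE 0.17, adjusted p = 0.0712), and it was called there, at 0.64, without FAP replicate 1. The direct comparison gave higher Polr1a in injured FAPs than in ASCs (log2 fold change 1.10, SE 0.15, adjusted p = 9.60e-05).

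Polr1c, a subunit shared with RNA polymerase III, showed another order. It measured 257 and 252 in FAPs, 665, 599.8 and 672 in injured FAPs and 810.2, 677 and 660.3 in ASCs. Injured FAPs and ASCs overlapped, and their difference was not called (log2 fold change −0.14, SE 0.11, adjusted p = 0.279). Polr1c was 2.54-fold and 2.81-fold above FAPs in injured FAPs and ASCs (log2 fold changes 1.34 and 1.48, adjusted p = 9.06e-06 and 5.56e-06 by limma). Polr1e, which belongs to RNA polymerase I alone, resembled Polr1a. Its values were 108 and 126 in FAPs, 297, 313 and 295 in injured FAPs and 107, 178 and 89.1 in ASCs, and it was higher in injured FAPs than in ASCs (log2 fold change 1.33, SE 0.23, adjusted p = 4.63e-04). The ASC libraries spanned the FAP values for Polr1e. Polr1b, the second catalytic subunit, and Polr1d were higher than in FAPs in both other groups. Their log2 fold changes were 1.18 and 1.14 in injured FAPs and 0.89 and 0.65 in ASCs. The ASC call of Polr1d was lost after quantile normalisation (0.57), with a common 75th percentile (0.44) and with total-read scaling (0.087). It was also lost without ASC replicate 1 (0.52) and without FAP replicate 2 (0.57). The ASC call of Polr1b was lost with total-read scaling (0.33).

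Box C/D proteins rose in both groups. All 4 (Fbl, Nop56, Nop58 and the snoRNP chaperone Nolc1) were higher in injured FAPs and in ASCs, with medians against FAPs of 1.95 in injured FAPs and 1.89 in ASCs. Nop58, a core protein that clamps the guide snoRNA, measured 687 and 601 in FAPs, 2880.3, 2995 and 3535 in injured FAPs and 7086, 5227 and 5606 in ASCs. No library of one group overlapped another group. Nop58 was 9.28-fold higher in ASCs than in FAPs (log2 fold change 3.20, SE 0.14, adjusted p = 1.13e-07) and 4.87-fold higher in injured FAPs (log2 fold change 2.28, SE 0.14, adjusted p = 9.37e-07). It was lower in injured FAPs than in ASCs (log2 fold change −0.92, SE 0.13, adjusted p = 1.18e-04), a call that was lost after quantile normalisation (−0.56) and with total-read scaling (−0.22).

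Nop56, the partner and paralogue of Nop58, was found at 942 and 899 in FAPs, 2843, 2871 and 2919 in injured FAPs and 5327, 2993 and 3244 in ASCs. ASC replicates 2 and 3 lay just above the injured libraries and replicate 1 far above them. Nop56 was higher than in FAPs in injured FAPs (log2 fold change 1.64, SE 0.20, adjusted p = 5.33e-05) and in ASCs (log2 fold change 2.02, SE 0.20, adjusted p = 1.59e-05), with no call between them (−0.37, adjusted p = 0.0901). Fbl, the methyltransferase of these particles, measured 591 and 587 in FAPs, 2607, 2382 and 2641 in injured FAPs and 2523, 1799.7 and 1798 in ASCs. Its change against FAPs was 2.11 in injured FAPs (adjusted p = 1.49e-06) and 1.77 in ASCs (adjusted p = 4.45e-06), by limma on the log2 scale. Nolc1 gave 1.79 and 1.67 on the same scale.

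Nop56 and Nop58 also carry snoRNA genes in their introns, and several of those encode the guides of the same particles. In the GENCODE M21 annotation of GRCm38, 17 snoRNAs lie in introns of 6 of the 57 nucleolar genes (Nop58, Nop56, Ncl, Gnl3, Dkc1 and Nop53), which is 10.5% of them. Among the 13348 tested genes with an annotation, 235 (1.76%) host a snoRNA. None of the 17 overlaps an exon of a coding transcript, so their bases are not part of the annotated messages. One snoRNA from each of 4 hosts makes this link visible, with capitals for the box C motif (ATGATGA or GTGATGA, on the snoRNA strand) near the 5′ end and the box D motif (CTGA) near the 3′ end, where Nop58, Nop56 and Fbl assemble.
Snord11, in Nop58, chr1:59704790-59704873, plus strand: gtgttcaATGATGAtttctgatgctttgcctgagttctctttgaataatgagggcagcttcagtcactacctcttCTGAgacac
Snord110, in Nop56, chr2:130275506-130275573, plus strand: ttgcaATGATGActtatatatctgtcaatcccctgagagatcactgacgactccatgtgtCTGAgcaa
Snord82, in Ncl, chr1:86356261-86356330, minus strand: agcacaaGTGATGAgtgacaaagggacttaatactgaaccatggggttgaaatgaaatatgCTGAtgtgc
Snord69, in Gnl3, chr14:31014287-31014366, minus strand: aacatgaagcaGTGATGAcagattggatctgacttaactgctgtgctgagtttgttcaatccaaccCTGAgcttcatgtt
In ASCs against FAPs the 6 hosts had log2 fold changes of 3.20 (Nop58), 2.93 (Gnl3), 2.02 (Nop56), 1.91 (Ncl), 0.76 (Nop53) and 0.72 (Dkc1). All 6 were called higher there, and with total-read scaling Nop53 (0.19) and Dkc1 (0.15) were not. In injured FAPs against FAPs, Nop53 (−0.039) was not called and the other hosts were called higher. The snoRNAs themselves were not compared.

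Box H/ACA proteins had their highest group means in injured FAPs. All 4 were called higher there than in FAPs (median 2.05), 3 were called higher in ASCs (median over the 4 of 1.01), and 3 were higher in injured FAPs than in ASCs (median 0.88). Nhp2, a core protein of these particles and of telomerase, measured 223 and 195 in FAPs, 1532, 1495 and 1615 in injured FAPs and 1051, 689.8 and 497 in ASCs. The 3 groups did not overlap, and the ASC libraries spread widely. Nhp2 was 7.4-fold higher in injured FAPs than in FAPs (log2 fold change 2.88, SE 0.24, adjusted p = 4.59e-06), 3.57-fold higher in ASCs than in FAPs (log2 fold change 1.77, SE 0.24, adjusted p = 1.47e-04) and 2.07-fold higher in injured FAPs than in ASCs (log2 fold change 1.12, SE 0.22, adjusted p = 0.00107).

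Dkc1 encodes dyskerin, the pseudouridine synthase of the box H/ACA particle, and lies on chromosome X from 75095854 to 75109777 (GRCm38, plus strand). Its values were 309 and 289.8 in FAPs, 1413, 1577 and 1583 in injured FAPs and 527, 519 and 441 in ASCs. Injured FAPs stood 5.09-fold above FAPs (log2 fold change 2.34, SE 0.12, adjusted p = 3.63e-07) and 3.08-fold above ASCs (log2 fold change 1.62, SE 0.11, adjusted p = 5.91e-07). The difference between ASCs and FAPs was smaller (log2 fold change 0.72, SE 0.12, adjusted p = 5.06e-04). It was no longer called with a common 75th percentile (0.51) or with total-read scaling (0.15). Nop10 and Gar1, the remaining core proteins, had log2 fold changes of 1.11 and 1.76 in injured FAPs against FAPs, and of 0.47 (not called) and 1.30 in ASCs.

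The small-subunit processome and its accessory factors formed the largest group, with 24 genes. In injured FAPs 17 were higher than in FAPs and none lower (median 1.03), and in ASCs 16 were higher and none lower (median 0.85). Between injured FAPs and ASCs, 4 were higher in injured FAPs (Utp20, Nop9, Rrp7a and Utp6) and 2 lower (Nop14 and Utp14b). The median was 0.21. Of all tested genes, 25.0% were higher and 25.8% lower there, so neither count exceeded the background. Utp20, a large scaffold protein of the 18S precursor, measured 599 and 501 in FAPs, 2339.7, 2378 and 2372 in injured FAPs and 992, 937 and 824 in ASCs. The injured libraries agreed within a few percent and lay far above the rest. Utp20 was 4.3-fold higher in injured FAPs than in FAPs (log2 fold change 2.11, SE 0.12, adjusted p = 5.02e-07) and 2.58-fold higher than in ASCs (log2 fold change 1.37, SE 0.10, adjusted p = 1.51e-06). Its rise in ASCs was 0.74 (SE 0.12, adjusted p = 3.56e-04 by limma), and fell under the threshold with a common 75th percentile (0.53) and with total-read scaling (0.17).

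Rrp12, which takes part in the export of pre-ribosomes, measured 318 and 263 in FAPs, 1047, 1011 and 1104 in injured FAPs and 1969, 1029.5 and 1106 in ASCs. The injured libraries lay beside ASC replicates 2 and 3, and ASC replicate 1 lay far above them. Rrp12 was higher than in FAPs in injured FAPs (log2 fold change 1.86, SE 0.24, adjusted p = 6.63e-05) and in ASCs (log2 fold change 2.17, SE 0.24, adjusted p = 2.80e-05). The difference between these was not called (−0.31, adjusted p = 0.212). Nop14, which joins the processome early and contributes to 18S maturation, measured 766 and 749.8 in FAPs, 1371, 1404 and 1391 in injured FAPs and 3162, 1720.4 and 1844 in ASCs. It was higher than in FAPs in injured FAPs (log2 fold change 0.87, SE 0.21, adjusted p = 0.00456) and in ASCs (log2 fold change 1.51, SE 0.21, adjusted p = 1.72e-04). Nop14 was lower in injured FAPs than in ASCs (−0.64, adjusted p = 0.0133), but without ASC replicate 1 the value was −0.36 and not called, and with total-read scaling it turned to 0.063.

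Nop9, an RNA-binding factor of the 18S precursor, reached 792, 827 and 808 in injured FAPs, against 242 and 212 in FAPs and 615, 353 and 308 in ASCs (log2 fold change against ASCs 0.99, SE 0.22, adjusted p = 0.0022). Of its exonic bases in the annotation, 29.9% overlap another gene, so part of its reads are uncertain. Heatr1, a processome protein also needed for RNA polymerase I transcription, rose by 1.74 in injured FAPs (adjusted p = 4.40e-05) and by 1.21 in ASCs (adjusted p = 6.12e-04). Rrp9, a protein of the U3 particle, rose by 1.63 and 1.96, and Utp4 by 1.64 and 1.83, on the log2 scale. Imp4, another U3-associated protein, was also higher in both (1.13 and 1.21), whereas its partner Imp3 was called in neither (0.43, adjusted p = 0.0201, and −0.0012, adjusted p = 0.995). Also without a call against FAPs were Nol6, Nol7, Rrp36 and Utp23, whose log2 fold changes lay between −0.12 and 0.56 in injured FAPs and between −0.43 and 0.43 in ASCs. The other genes of this group (Utp3, Utp6, Utp11, Utp14a, Utp15, Utp18, Utp25, Nol10, Nol11 and Rrp7a) had log2 fold changes of 0.44 to 1.44 in injured FAPs and 0.042 to 1.67 in ASCs.

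The large-subunit assembly factors numbered 15. In injured FAPs 12 were higher than in FAPs (median 1.36) and in ASCs 12 (median 0.99), with none lower in either. Between injured FAPs and ASCs, 3 were higher (Wdr12, Bop1 and Rrp8) and 3 lower (Gnl3, Rrs1 and Nop53), and the median was 0.10. Neither count exceeded the background of 25.0% higher and 25.8% lower among all tested genes. Gnl3 encodes nucleostemin, a GTP-binding nucleolar protein known from stem cells, and lies on chromosome 14 from 31012433 to 31019152 (minus strand). Its values were 496 and 417 in FAPs, 1638, 1651 and 1773 in injured FAPs and 4538, 2899 and 3205 in ASCs. The groups were well apart, with the highest values in ASCs. Gnl3 was 7.77-fold higher in ASCs than in FAPs (log2 fold change 2.93, SE 0.17, adjusted p = 4.86e-07) and 3.7-fold higher in injured FAPs (log2 fold change 1.89, SE 0.17, adjusted p = 7.21e-06). It was lower in injured FAPs than in ASCs (log2 fold change −1.05, SE 0.15, adjusted p = 1.57e-04), though at −0.35 with total-read scaling it was no longer called.

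Wdr12, Bop1 and Pes1 form one complex, PeBoW, which is needed for the 28S and 5.8S RNAs, and their transcripts did not move evenly. Wdr12 measured 123 and 97.8 in FAPs, 465, 559.5 and 606 in injured FAPs and 253, 219.7 and 144 in ASCs. It was 4.93-fold higher in injured FAPs than in FAPs (log2 fold change 2.29, SE 0.23, adjusted p = 1.55e-05) and 2.64-fold higher than in ASCs (log2 fold change 1.43, SE 0.21, adjusted p = 1.58e-04). Its smaller difference between ASCs and FAPs (0.86, adjusted p = 0.00891) was lost without FAP replicate 2 (0.70, adjusted p = 0.0834) and with total-read scaling (0.30). Bop1 was higher in injured FAPs than in FAPs by 1.39 (adjusted p = 1.23e-05) and than in ASCs by 0.90 (adjusted p = 9.59e-05). For Pes1 the change was 1.32 against FAPs (adjusted p = 1.24e-04) and 0.38 against ASCs (adjusted p = 0.0625, not called).

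Nop53, which binds the large-subunit precursor and recruits the RNA exosome's helicase, did not follow the others. It measured 2412 and 2199 in FAPs, 2155, 2251 and 2324 in injured FAPs and 5304, 3333 and 3364 in ASCs. FAPs and injured FAPs overlapped (log2 fold change −0.039, SE 0.18, adjusted p = 0.859), and all ASC libraries were higher. The rise in ASCs against FAPs (log2 fold change 0.76, SE 0.18, adjusted p = 0.00419) was not called without ASC replicate 1 (0.54), after quantile normalisation (0.36), with a common 75th percentile (0.55) or with total-read scaling (0.19). The lower value in injured FAPs than in ASCs (−0.80, adjusted p = 0.00129) likewise ended just under the fold threshold without ASC replicate 1 (−0.58) and at −0.10 with total-read scaling. Rrs1, which helps to place the 5S particle in the large subunit, measured 281 and 204 in FAPs, 923, 919 and 1039.6 in injured FAPs and 2317, 1341 and 1159 in ASCs. It was 3.96-fold higher than in FAPs in injured FAPs (adjusted p = 6.98e-05), and its log2 fold change was 2.67 in ASCs (adjusted p = 1.15e-05) and −0.68 between them (adjusted p = 0.0229), a call lost without ASC replicate 1 (−0.38) and under 5 other alternatives, among them total-read scaling (0.022). Nop2, a methyltransferase of the large ribosomal RNA, rose by 1.48 in injured FAPs and by 1.51 in ASCs. Nop16, Rrp15, Nol8 and Nol9 were also raised over FAPs, by 0.99 to 1.86 on the log2 scale in injured FAPs and by 1.17 to 1.42 in ASCs. Rrp8, which methylates an adenine of the 28S RNA, was higher in injured FAPs (663, 751 and 659) than in FAPs (474 and 395) and ASCs (461, 407 and 281), by 0.67 (adjusted p = 0.0115) and 0.88 (adjusted p = 0.00121), the first of which was not called without FAP replicate 2 (0.54). Of its exonic bases, 9.98% overlap Ilk on the other strand. Nol12 was called in no comparison, with log2 fold changes of −0.11 and −0.21 against FAPs. With total-read scaling, however, it was called lower in ASCs than in FAPs (−0.77) and higher in injured FAPs than in ASCs (0.80).

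Nucleolin (Ncl, chromosome 1 from 86344719 to 86359400, minus strand) and nucleophosmin (Npm1, chromosome 11 from 33152287 to 33163206, minus strand) are abundant nucleolar proteins that act in ribosomal RNA transcription, processing and histone handling. Ncl measured 3356 and 3171 in FAPs, 18726, 20275 and 22088 in injured FAPs and 16042, 10736 and 10713 in ASCs. Npm1 measured 2475 and 2117 in FAPs, 14638, 16188 and 18209 in injured FAPs and 9303, 7831 and 6631 in ASCs. For both genes the 3 groups kept apart, in the order FAPs, ASCs, injured FAPs. Ncl was 6.24-fold higher in injured FAPs than in FAPs (log2 fold change 2.64, SE 0.17, adjusted p = 9.83e-07), 3.83-fold higher in ASCs than in FAPs (log2 fold change 1.91, SE 0.17, adjusted p = 7.33e-06) and 1.63-fold higher in injured FAPs than in ASCs (log2 fold change 0.73, SE 0.15, adjusted p = 0.00167). The same 3 contrasts for Npm1 were 7.12-fold (log2 fold change 2.83, SE 0.15, adjusted p = 4.39e-07), 3.45-fold (log2 fold change 1.78, SE 0.15, adjusted p = 5.91e-06) and 2.06-fold (log2 fold change 1.05, SE 0.14, adjusted p = 6.56e-05). Npm1 has near-identical copies in the genome, so its reads are uncertain. Ncl and Npm1 together accounted for 17.5% and 17.2% of the summed nucleolar values in the FAP libraries, 35.2% to 38.7% in injured FAPs and 23.8% to 25.6% in ASCs.

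**Figure D3:**
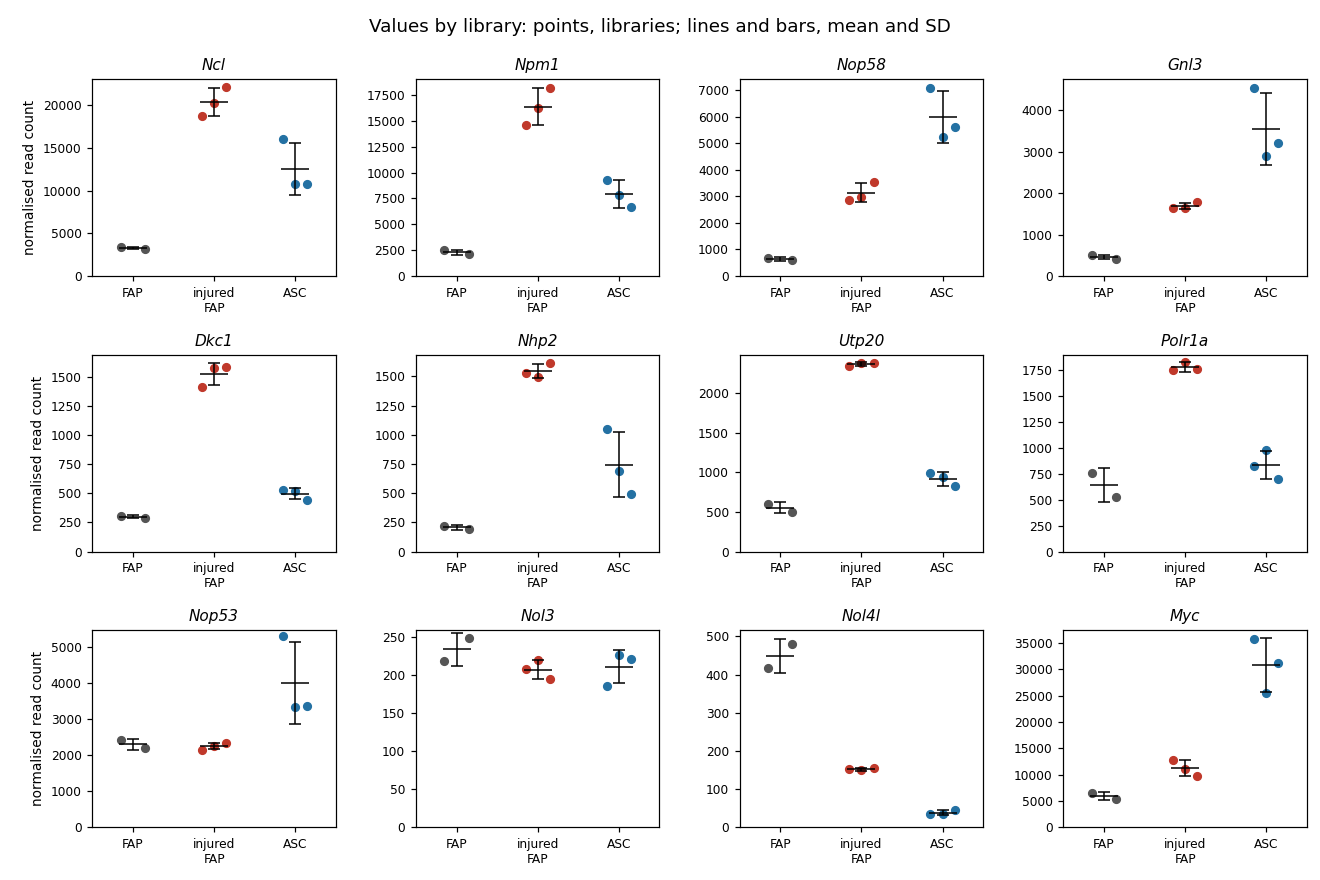
Normalised read counts (vertical axes, linear from 0) of 11 nucleolar genes and Myc in each FAP, injured FAP and ASC library, with points for libraries, a line for the group mean and bars for the SD. Ncl, Npm1, Dkc1, Nhp2, Utp20 and Polr1a are highest in the injured FAP libraries, Nop58, Gnl3, Nop53 and Myc in the ASC libraries, and Nol4l in the FAP libraries.

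Nol3 and Nol4l share the prefix but have no known part in ribosome assembly. Nol3, an inhibitor of apoptosis also called ARC, measured 218 and 248 in FAPs, 207, 219 and 194 in injured FAPs and 186, 225 and 221 in ASCs. The groups overlapped, and no comparison was called (log2 fold changes −0.17, −0.15 and −0.024, adjusted p from 0.345 to 0.888 by limma), although with total-read scaling it was lower in ASCs than in FAPs (−0.71) and higher in injured FAPs than in ASCs (0.67). Of its exonic bases, 48.2% overlap an antisense gene, and the strand setting of the counting is not given in the sources used here. Nol4l (chromosome 2 from 153407462 to 153529971, minus strand) measured 417 and 479.8 in FAPs, 151, 149 and 156 in injured FAPs and 34.3, 34 and 45.2 in ASCs. It was lower than in FAPs in injured FAPs (log2 fold change −1.55, SE 0.19, adjusted p = 5.06e-05) and in ASCs (log2 fold change −3.54, SE 0.19, adjusted p = 2.78e-07), and higher in injured FAPs than in ASCs (log2 fold change 1.99, SE 0.17, adjusted p = 3.13e-06). The summed values of 8 skeletal muscle fibre markers had the same order, at 862 and 1038 in FAPs, 249 to 322 in injured FAPs and 125 to 169 in ASCs. The endothelial markers Cdh5, Flt1, Tie1 and Egfl7 also had the order of Nol4l in their group means. Flt1 measured 1260 and 953 in FAPs, 321 to 356 in injured FAPs and 32.6 to 92.2 in ASCs. Of the other endothelial markers, Tek was highest in ASCs and Kdr was lowest in injured FAPs. Pecam1, Emcn, Cldn5 and Vwf were highest in injured FAPs. Nol4l measured 1461 in the CD31+CD45+ library. The part of these marker lists in the result was not tested.

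**Figure D4:**
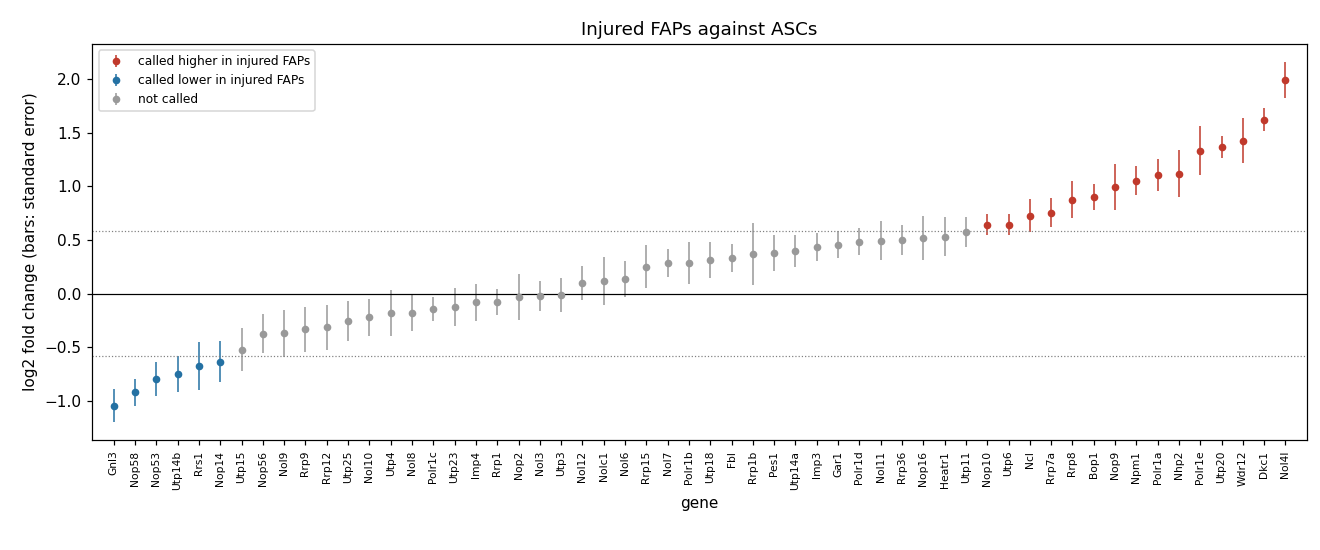
Log2 fold changes in injured FAPs against ASCs for the 56 tested nucleolar genes in rising order, with bars for the standard error and dotted lines at ±0.58. The 6 genes called lower (blue, Gnl3 at −1.05 to Nop14 at −0.64) and the 15 called higher (red, Nop10 at 0.64 to Nol4l at 1.99) flank 35 without a call (grey).

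The direct comparison put the nucleolar genes in 3 sets. Those higher in injured FAPs than in ASCs were Nol4l, Dkc1, Wdr12, Utp20, Polr1e, Nhp2, Polr1a, Npm1, Nop9, Bop1, Rrp8, Rrp7a, Ncl, Utp6 and Nop10. Those lower in injured FAPs were Gnl3, Nop58, Nop53, Utp14b, Rrs1 and Nop14, and none of these kept its call with total-read scaling, where their log2 fold changes were −0.35, −0.22, −0.10, −0.054, 0.022 and 0.063. The remaining 35 were not called, which does not show that they were equal. The highest group mean fell in injured FAPs for 32 of the 56 genes, in ASCs for 21 and in FAPs for 3 (Nol4l, Nol3 and Nol12).

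Paralogues differed from one another as well. Rrp1 and Rrp1b both derive from a yeast factor of the large subunit, and Rrp1b also binds a phosphatase. Rrp1 measured 1495 and 1537 in FAPs, 2133, 2157 and 2167 in injured FAPs and 2782, 2059 and 2051 in ASCs. Its log2 fold change of 0.51 in injured FAPs (adjusted p = 0.00668) stayed under the fold threshold, though total-read scaling gave 0.64, past it. The log2 fold change of 0.58 in ASCs (adjusted p = 0.00332) was at it, falling to 0.44 without ASC replicate 1, to 0.56 without FAP replicate 1, to 0.55 with edgeR, to 0.38 with a common 75th percentile, to 0.29 after quantile normalisation and to 0.017 with total-read scaling. Rrp1b measured 417 and 379 in FAPs, 1004, 1048 and 1013 in injured FAPs and 1454, 614 and 555 in ASCs. It was higher in injured FAPs than in FAPs (log2 fold change 1.36, SE 0.33, adjusted p = 0.00407). The call in ASCs (log2 fold change 0.99, SE 0.33, adjusted p = 0.0227) rested on replicate 1, without which it was 0.55, and was also lost without either FAP library (adjusted p = 0.0725 without FAP replicate 1 and 0.114 without FAP replicate 2, by limma). Without ASC replicate 1, Rrp1b was called higher in injured FAPs than in ASCs (0.81, against 0.37 with it).

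Utp14a, on chromosome X, and Utp14b, its intronless copy on chromosome 1 known for a role in spermatogenesis, also parted. Utp14a measured 345 and 348 in FAPs, 779.9, 862 and 852 in injured FAPs and 786, 641 and 499.6 in ASCs. Utp14b measured 123 and 95, 162, 132 and 129 and 215, 238 and 259 in the same groups. Utp14a was higher than in FAPs in injured FAPs (log2 fold change 1.26, SE 0.17, adjusted p = 9.67e-05) and in ASCs (log2 fold change 0.86, SE 0.17, adjusted p = 0.00136). Utp14b was called only in ASCs (log2 fold change 1.12, SE 0.19, adjusted p = 4.80e-04, against 0.37, adjusted p = 0.0983, in injured FAPs), except that quantile normalisation gave a called 0.61 in injured FAPs and total-read scaling left 0.56 in ASCs, which was not called. In the direct comparison Utp14b was lower in injured FAPs than in ASCs (−0.75, adjusted p = 0.0024) and Utp14a was not called (0.39, adjusted p = 0.0392). With total-read scaling the ASC rise of Utp14a was 0.30 and not called, and Utp14a was called higher in injured FAPs than in ASCs (1.09). Utp14b lies inside the gene Acsl3 and its values are low, and 11.5% of the exonic bases of Utp14a overlap another gene.

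Other genes of the pathway, 105 in number and none of them among the 57, were counted in the same way. Against FAPs, 79 were higher and 1 lower in injured FAPs (median 1.07), and 58 were higher and 3 lower in ASCs (median 0.76). Between injured FAPs and ASCs, 37 were higher and 10 lower (median 0.33). The shares higher were 75.2%, 55.2% and 35.2%, against 24.9%, 23.4% and 25.0% of all tested genes. Of all tested genes, 27.7%, 23.8% and 25.8% were lower in the same comparisons. Ddx21, an RNA helicase that links RNA polymerase I transcription to processing, measured 1223 and 1109 in FAPs, 5372, 5474 and 5994 in injured FAPs and 8457, 4919 and 5107 in ASCs. Its log2 fold change was 2.27 in injured FAPs (adjusted p = 6.11e-06) and 2.36 in ASCs (adjusted p = 5.56e-06). The direct difference was −0.09 and not called, and with total-read scaling it turned to 0.61. Ppan, a large-subunit factor, was higher in ASCs (3367, 1705 and 1919) than in injured FAPs (999, 995 and 966) and FAPs (474 and 485), with a log2 fold change of −1.17 in injured FAPs against ASCs (adjusted p = 5.45e-04), a call that was lost with total-read scaling (−0.47). Ddx55 went the other way in ASCs (93.5, 165 and 131, against 189 and 296 in FAPs and 192, 227 and 195 in injured FAPs). It was lower in ASCs than in FAPs (−0.90, adjusted p = 0.0119), a call lost without FAP replicate 2 (−0.58).

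Factors that load and run RNA polymerase I were uneven. Rrn3, which brings the polymerase to the ribosomal promoter, measured 586 and 541 in FAPs, 1352, 1429.8 and 1471 in injured FAPs and 1769, 1061 and 1114 in ASCs, and was higher than in FAPs in both (1.33, adjusted p = 1.53e-04, and 1.18, adjusted p = 4.07e-04). Ubtf, the factor that keeps ribosomal genes open, measured 3254 and 3108 in FAPs, 3089.8, 3252 and 3222 in injured FAPs and 2099.9, 2811 and 2309 in ASCs. FAPs and injured FAPs lay on one another (log2 fold change 0.003, adjusted p = 0.984). The lower ASC value (−0.41, adjusted p = 0.0135) was under the fold threshold as deposited and past it with total-read scaling (−0.98), after quantile normalisation (−0.79) and with a common 75th percentile (−0.62). Taf1a, a subunit of the promoter selectivity factor, was lower in injured FAPs (105, 112 and 111) than in ASCs (359.6, 233 and 223), by −1.27 on the log2 scale (adjusted p = 1.68e-04), with FAPs at 152 and 142. With total-read scaling the difference was −0.58, just under the fold threshold.

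The RNA exosome, which trims and degrades ribosomal precursors, was raised chiefly in injured FAPs. Of its 14 genes, 10 were raised in injured FAPs over FAPs (median 0.99), against 24.9% of all genes. In ASCs, 2 were higher than in FAPs and 1 lower (median 0.023), against 23.4% and 23.8% of all genes. Between injured FAPs and ASCs, 11 were higher in injured FAPs (median 0.94), against 25.0% of all genes. Exosc8 measured 231 and 216 in FAPs, 769, 706 and 847 in injured FAPs and 182, 285 and 216 in ASCs (log2 fold change in injured FAPs against ASCs 1.78, SE 0.16, adjusted p = 5.54e-06). Exosc2 measured 213 and 183, 705, 673 and 744 and 287, 276 and 196 in the same order (2.8-fold higher in injured FAPs than in ASCs, adjusted p = 1.38e-05). FAP and ASC libraries overlapped for both genes, and the injured libraries stood alone. Shq1, a chaperone of dyskerin, measured 42.8 and 31 in FAPs, 159, 167 and 178 in injured FAPs and 67.2, 94 and 50.2 in ASCs. It was 4.55-fold higher in injured FAPs than in FAPs (log2 fold change 2.17, SE 0.27, adjusted p = 6.32e-05). Its call in ASCs (0.89, adjusted p = 0.0168) was lost without FAP replicate 2 (0.66) and with total-read scaling (0.33). It was also lost, by the adjusted p, with a common 75th percentile (0.68) and with only the groups compared (0.89).

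Ribosomal proteins give a second view of the same product. Of all tested genes, 24.9%, 23.4% and 25.0% were higher in injured FAPs against FAPs, ASCs against FAPs and injured FAPs against ASCs. In the same order, 27.7%, 23.8% and 25.8% were lower. Of 77 tested genes of cytosolic ribosomal proteins, 75 were raised in injured FAPs over FAPs (median 1.24) and 77 in ASCs (median 1.11), whereas 4 were higher and 1 lower between injured FAPs and ASCs (median 0.16). Of 78 genes of mitochondrial ribosomal proteins, 56 were raised in injured FAPs over FAPs (median 0.81), 6 were higher and 5 lower in ASCs (median 0.035), and 51 were higher in injured FAPs than in ASCs (median 0.78). The nucleolar genes, with medians of 1.29, 0.94 and 0.30 in these comparisons, thus had values nearer to those of the cytosolic proteins. Many ribosomal protein genes have near-identical copies, so their counts are uncertain.

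Myc, which activates many nucleolar genes, was highest in ASCs and not in injured FAPs. It measured 6473 and 5426 in FAPs, 12853, 11025 and 9819 in injured FAPs and 35722, 25499.5 and 31148 in ASCs, with no overlap between groups. Myc was 1.89-fold higher in injured FAPs than in FAPs (log2 fold change 0.91, SE 0.16, adjusted p = 7.04e-04), 5.18-fold higher in ASCs than in FAPs (log2 fold change 2.36, SE 0.16, adjusted p = 1.49e-06) and lower in injured FAPs than in ASCs (log2 fold change −1.45, SE 0.15, adjusted p = 1.12e-05). Of 10 tested genes of the Myc network, Myc included, 2 were higher and 4 lower in injured FAPs than in FAPs (24.9% and 27.7% of all genes), and 1 was higher and 3 lower in ASCs (23.4% and 23.8% of all genes). Mxd3, a repressor that competes with Myc for its partner Max, measured 18.1 and 36.7 in FAPs, 378, 384 and 388 in injured FAPs and 14.5, 6.8 and 17.6 in ASCs, a log2 fold change of 3.84 in injured FAPs against FAPs (adjusted p = 1.57e-05). The lower Mxd3 value in ASCs than in FAPs (−1.03, adjusted p = 0.0424) was lost in 8 of the 20 alternatives. Mxd4, another repressor of this family, was lower in injured FAPs (840.3, 812 and 738) than in FAPs (1845 and 1856) and ASCs (1670.4, 1901 and 2064), by −1.22 against FAPs (adjusted p = 8.45e-06). Mxi1 (1075 and 903 in FAPs, 508, 543 and 532 in injured FAPs, 794, 509 and 516 in ASCs) and Mycn (63.7 and 68.7, 18.8, 12.4 and 21.4 and 29, 20.4 and 26.4) were lower than in FAPs in injured FAPs (−0.90 and −1.89) and in ASCs (−0.73 and −1.37). The ASC call of Mxi1 was lost without FAP replicate 1 (−0.61, adjusted p = 0.0651), and that of Mycn after quantile normalisation (−0.84, adjusted p = 0.0555).

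Myc and Max bind the E-box, whose strongest form reads CACGTG and is its own reverse complement. RefSeq promoter windows on GRCm38.p6, from 250 bases before to 50 bases after the transcription start, were available for 45 of the 57 nucleolar genes. This E-box lay in a window of 10 of the 45 (22.2%), against 11.5% of 10751 tested genes and 8.09% of 27025 genes in all. The ETS motif (CCGGAAG, either strand) lay in 15 (33.3%, against 19.1% and 9.93%), the NRF1 core (GCGCATG, either strand) in 2 (4.44%, against 7.66% and 4.41%) and the YY1 core (AAGATGG, either strand) in 1 (2.22%, against 8.24% and 7.28%). These are matches of letters and not measured binding sites, and the background mixes genes of all kinds. Stretches of 60 bases with the E-box in capitals are shown for the 4 genes with an E-box before the start that were called higher in both comparisons with FAPs, because they show where the motif lies. Because these 4 were chosen by their calls, they do not show a link between the motif and a change. In Utp14b the E-box lay from 63 bases before the start. In Rrp7a it lay farther away, from 208 bases before the start. The Utp25 motif lay from 245 bases before a start, but at positions 24 and 43 after other annotated starts of that gene. Utp14b and Utp25 were not called in injured FAPs against FAPs (0.37 and 0.44), nor was Rrp7a in ASCs against FAPs (0.11).
Nop2, chr6:125131796-125131855, plus strand, E-box from 60 bases before the start: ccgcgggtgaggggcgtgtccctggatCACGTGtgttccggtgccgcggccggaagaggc
Utp18, chr11:93885767-93885826, minus strand, E-box from 20 bases before the start: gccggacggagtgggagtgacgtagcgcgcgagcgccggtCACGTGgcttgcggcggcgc
Nol11, chr11:107189392-107189451, minus strand, E-box from 43 bases before the start: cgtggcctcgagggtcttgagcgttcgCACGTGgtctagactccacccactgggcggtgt
Imp4, chr1:34439681-34439740, plus strand, E-box from 121 bases before the start: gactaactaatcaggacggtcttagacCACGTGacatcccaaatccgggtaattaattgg
Nop2 had log2 fold changes of 1.48 in injured FAPs and 1.51 in ASCs against FAPs, Utp18 of 1.25 and 0.94, Imp4 of 1.13 and 1.21, and Nol11 of 1.12 and 0.63. In ASCs, the call of Nol11 was lost without ASC replicate 1 (0.41), without either FAP library and in 3 other alternatives, and that of Utp18 with total-read scaling (0.37).

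Several other sets of genes moved with these groups. Of the 5 stromal markers, Cd34, Dcn and Col1a1 were lower in injured FAPs than in FAPs (log2 fold changes −1.48, −1.36 and −1.59). Ly6a was higher (0.81) and Pdgfra was not called (0.44). Of all genes, 27.7% were lower and 24.9% higher. In ASCs against FAPs, 3 of these markers were higher and 0 lower, against 23.4% and 23.8% of all genes. The part of these markers in the result was not tested. The summed value of 12 cell division genes was 27946 to 29751 in injured FAPs, against 518 and 1173 in FAPs and 739 to 1435 in ASCs. All 12 were raised in injured FAPs over FAPs (median log2 fold change 5.36), and 1 of 12 was higher in ASCs. Of all genes, 24.9% and 23.4% were higher in these comparisons. The part of cell division in the injured values was not tested. Leukocyte markers summed to 265 and 497 in FAPs (9 of 12 listed at 0 in each), 363 to 426 in ASCs, and 615, 2812 and 531 in injured FAP replicates 1 to 3. Without injured FAP replicate 2, again 44 nucleolar genes were higher and 1 lower in injured FAPs than in FAPs. Replicates 1 and 3 also held leukocyte transcripts listed at 0 in both FAP libraries, such as Lyz2 (142 and 109). The part of leukocytes in the result was not tested. Endothelial markers had a median value of 452 and 255 in FAPs (3 and 4 of 10 listed at 0, among them Emcn, Cldn5 and Vwf), 70.2 to 105 in injured FAPs and 23.9 to 50.1 in ASCs. Their sums were 6972 and 4723 in FAPs, 1603 to 2048 in injured FAPs and 5207 to 6976 in ASCs, where Tek alone gave 4841 to 6700. Of 9 tested endothelial markers, 5 were lower and 3 higher in ASCs than in FAPs (23.8% and 23.4% of all genes). In injured FAPs, 5 of these markers were lower than in FAPs and 2 higher (27.7% and 24.9% of all genes). Their part in the result was not tested. The share of values held by the 100 highest genes also differed between groups, at 35.9% and 36.3% in FAPs, 24.7% to 26.1% in injured FAPs and 40.3% to 43.1% in ASCs. What it contributes was not tested.

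In the CD31+CD45+ library, which rests on 13091077 recovered reads, the median nucleolar value was 414. For 25 of the 56 genes it lay above both FAP libraries, for 23 below both, and for 49 below every injured FAP library. Ncl measured 3296 there and Npm1 2182, both within the FAP range, and Myc measured 1469, below all 8 stromal libraries. Nop53 (4639) was above every FAP and injured FAP library.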

How the data were processed

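RNA of 9 libraries was sequenced. For the authors, this meant read filtering (fastq_illumina_filter 0.1), a quality check (FastQC 0.11.9), alignment to mm10 (HISAT2 2.2.1), counting per gene (featureCounts, Subread 2.0.1) and DESeq2. The deposited signal values are normalised counts, and multiplying by a size factor per library turned all of them (100%, tolerance 0.01) into whole reads. Settings for strand and for reads with several matches are not given in the sources used here.

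Groups came from the labels. The log2 of (value + 1) was fitted over 8 libraries with limma 3.58.1 (trend, R 4.3.3, 5 residual degrees of freedom), for 13601 genes with a mean of at least 10, with Benjamini-Hochberg adjustment. Fold changes are on this scale and understate changes of low genes. The call threshold was 0.05 for the adjusted p with 0.58 for the absolute log2 fold change. Alternatives were the pseudocounts 0.5 and 8, no filter, a mean of 50, quantile, 75th percentile and total-read scaling, only the groups compared, a replicate block, each library left out, edgeR 4.0.16 (quasi-likelihood) and DESeq2 1.42.0 on the recovered reads, and the adjusted p alone. The main limma fit and the edgeR and DESeq2 fits were run on simulated reads with 200 genes changed 4-fold in injured FAPs. Against FAPs they recovered 194, 194 and 191 of these, with 10, 8 and 20 wrong calls. Far fewer genes changed there than were called in the data, and the other steps and alternatives were not simulated.

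Members and lists were chosen with earlier results of these data known. Genes given with all values were, in each role, the one with the highest mean and those with the largest change against FAPs, members called lower (up to 6), the 4 largest called changes between injured FAPs and ASCs, 3 paralogue pairs, and, of the other pathway genes, the 3 largest called rises and falls per comparison with Myc, Rrn3 and Ubtf. Other members with values (Polr1e, Fbl, Nop9, Rrp8 and Rrs1) were chosen after their values were seen. Same-numbered libraries did not deviate together (correlations from −0.054 to 0.045). Protein sequences were not analysed here.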

Additional observations from a re-analysis of the deposited data

Results flagged for a closer look

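The genes Nol4l and Nol4 stood out in the CD31+CD45+ library, which is a single library without a replicate and is used in no comparison. Nol4l measured 1461 there, above all 8 stromal libraries, of which the highest was a FAP library at 480. Nol4 measured 11.0 there and was listed at 0 in all 8 stromal libraries. No test was possible for either.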

How the results depend on the processing

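Over the 20 alternatives, 34 named genes and 3 comparisons, 1918 of 2037 values kept their direction and their side of the thresholds, 41 that were called neither before nor after changed sign, 56 lost a call, 18 gained one and 4 turned sign and gained or lost a call. The counts of nucleolar genes called stayed within 1.5 times of the reported ones except in injured FAPs against ASCs, where 21 became 39 with total-read scaling (39 higher, 0 lower) and 32 (25 higher, 7 lower) by the adjusted p alone. Total-read scaling also moved the median log2 fold changes to 1.42 (injured FAPs against FAPs), 0.37 (ASCs against FAPs) and 1.00 (injured FAPs against ASCs), and a common 75th percentile moved the first to 1.19; both rescale every gene alike. The last 4, with total-read scaling in injured FAPs against ASCs, were Nop14 (0.063), Nol3 (0.67), Rrp1 (0.62) and Ddx21 (0.61). Leaving out 1 library at a time gave 44 to 46 calls in injured FAPs against FAPs (medians 1.21 to 1.32), 34 to 42 in ASCs against FAPs (0.72 to 1.07) and 20 to 25 in injured FAPs against ASCs (0.18 to 0.50). Where an omission leaves 1 FAP library, it is assumed to vary like the other groups. A replicate block gave 46, 41 and 21 calls with medians of 1.34, 0.97 and 0.30; the numbers did not pair the libraries. Recovered reads gave 46, 40 and 24 calls with edgeR and 46, 41 and 21 with DESeq2. Depth did not limit the 56 tested members, which lay well above the value of 3 reads (2.29 to 3.95).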
